A study of Mus musculus with 34 samples.

Results

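Voltage-gated and related ion channel genes were described across small molecule treatments of N2A cells, a mouse neuroblastoma line. Members were taken by gene symbol: potassium channel genes beginning with Kcn, sodium channel genes named Scn with a number and the letter a or b, calcium channel genes beginning with Cacna, Cacnb or Cacng, and the pacemaker genes beginning with Hcn. The expression table of 52661 genes held 143 such symbols, and the 56 that exceeded 1 RPKM (reads scaled to transcript length and library size, so a level per length) in DMSO or with any compound are described here. Of these, 37 exceeded 1 RPKM in DMSO, 19 did so only with a compound, and the other 87 symbols did so in no condition. Just inside the limit were Cacna2d2 at 1.06, Kcnj9 at 1.07 and Kcnd1 at 1.45 RPKM in their highest condition, and just outside it were Kcnc1 at 0.92, Scn4a at 0.9 and Kcnk2 at 0.81.

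The study sequenced polyA+ RNA of N2A cells treated for 24 h, in 34 libraries that all contained 0.4% DMSO. DMSO alone had 3 libraries (A, B and C), the HDAC inhibitors Vorinostat, CI-994, BRD4884 and BRD6688 had 2 each, and each of 23 further compounds had 1. In the study's terms 17 compounds are activators of microexon splicing, the 4 HDAC inhibitors among them, and 10 are inhibitors, where a microexon is an exon of at most 27 nt. All libraries came from the same cell line, so spread between libraries is spread between samples of that line. The sample labels do not say whether replicates were separate cultures, and the study's methods describe them as biological replicates.

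Ion channels of this superfamily set the electrical behaviour of excitable cells. Sodium channels carry the rising phase of the action potential, voltage-gated calcium channels couple depolarization to calcium entry and transmitter release, potassium channels repolarize the membrane or hold it at rest, and Hcn channels carry a current that opens on hyperpolarization. The pore is made by an alpha subunit and is tuned by smaller auxiliary subunits, and many of these genes are spliced differently in neurons than elsewhere.

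Exons of channel genes were read from the deposited splicing table. The microexons that could be measured in DMSO and matched to annotated transcripts are shown because they are the events closest to the purpose of the screen, together with the 42-nt exon of Kcnab2, the exon with the smallest adjusted p between the compound classes. Capitals mark the exon and lower case marks 10 bases of the neighbouring exon on either side in the spliced GENCODE vM21 transcript (GRCm38).
Cacnb3 20 nt, chr15:98640959-98640978, plus strand: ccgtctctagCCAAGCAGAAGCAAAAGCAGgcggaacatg
Cacnb1 20 nt, chr11:98010627-98010646, minus strand: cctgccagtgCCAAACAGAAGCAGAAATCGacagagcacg
Kcnq5 27 nt, chr1:21466383-21466409, minus strand: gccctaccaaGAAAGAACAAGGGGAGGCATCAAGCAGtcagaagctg
Cacna1b 12 nt, chr2:24656711-24656722, minus strand: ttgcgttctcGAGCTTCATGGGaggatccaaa
Cacna1b 6 nt, chr2:24642853-24642858, minus strand: agagatagcgGAAACGaacaacttca
Kcnma1 12 nt, chr14:23449200-23449211, minus strand: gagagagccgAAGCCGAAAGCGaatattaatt
Cacna1c 27 nt, chr6:118705543-118705569, minus strand: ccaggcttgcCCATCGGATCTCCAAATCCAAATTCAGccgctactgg
Kcnab2 42 nt, chr4:152434782-152434823, minus strand: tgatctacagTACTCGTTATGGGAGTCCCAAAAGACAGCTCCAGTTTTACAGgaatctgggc

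The microexons of Cacnb1 and Cacnb3, which encode related beta subunits of calcium channels, were identical at 15 of 20 bases. Written with the differing bases in capitals, they are as follows.
Cacnb1 20 nt: ccaaAcagaagcaGaaATCg
Cacnb3 20 nt: ccaaGcagaagcaAaaGCAg

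In DMSO, auxiliary subunits and Kv channels were among the most abundant channel transcripts per length. Kcnab2, an auxiliary beta subunit of Kv channels, had the highest value at 33.6 RPKM. It was followed by Kcnh2, which encodes the ERG potassium channel, at 21.5 RPKM, by the pacemaker channel gene Hcn2 at 20.4 RPKM and by Cacng3, which encodes a calcium channel gamma family protein that traffics AMPA receptors, at 19.97 RPKM. The sodium channel genes Scn8a (Nav1.6) and Scn3b (a beta subunit) had 16.6 and 14.7 RPKM. Cacng7 at 14.2 RPKM, Kcnab1 at 13.9 RPKM and the two-pore channel gene Kcnk3 at 11.3 RPKM were also among the 10 highest. The RPKM values are merged over libraries of a condition, so they carry no error and neighbours in this order cannot be said to differ. Most of the family was low or not expressed: of 40 Kv alpha genes 11 were described, of 15 inward rectifier genes 3, and of 14 two-pore genes 3. Calcium alpha1 genes were led by Cacna1b (Cav2.2, the N-type channel) at 8.3 RPKM.

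All 12 neuroblastoma and neuron markers examined, among them Phox2a, Hand2 and Mycn, exceeded 1 RPKM in DMSO. The 10 markers of other cells summed to 2.81 RPKM in DMSO, with 1 of them above 1 RPKM and with Myh2 and Alb listed at 0. They summed to between 4.7 and 21.2 RPKM with the HDAC inhibitors and between 2.59 and 7.54 RPKM with the other compounds. Their part in the results below was not tested. In these bulk libraries, a change in the share of cells expressing a gene and a change in RNA per cell cannot be told apart.

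A channel gene was called higher or lower where RPKM + 0.5 was over 2-fold away from its DMSO value and either value exceeded 1 RPKM. This is a rule of size with no test, since 1 merged value is given per condition. A gene at or below 1 RPKM in DMSO, as 19 of the described genes were, enters only where a compound lifts it. Such a gene can be called higher but not lower, so nothing is read from the balance of higher and lower calls. Over all pairs of a described gene and a compound, 105 were higher and 46 lower of 1089. Of the pairs of all genes with these compounds, 5.32% were higher and 4.57% lower. With the 4 HDAC inhibitors 58 pairs were higher and 16 lower of 194, where 13.4% of all gene pairs were called in each direction, and 21 genes were higher and 10 lower with at least 1 of them, against 24.1% and 26.5% of all genes tested. With the other 23 compounds 47 were higher and 30 lower of 895, against 3.82% and 2.93% of all gene pairs, and 22 genes were higher and 17 lower with at least 1 of them, against 30.9% and 19.6% of all genes. The median gene above 5 RPKM moved by -0.44 to -0.19 on the log2 scale with the HDAC inhibitors. Centring on that median gave 131 higher and 27 lower pairs in place of 105 and 46. Altogether 10 described genes were called with no compound.

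**Figure D1:**
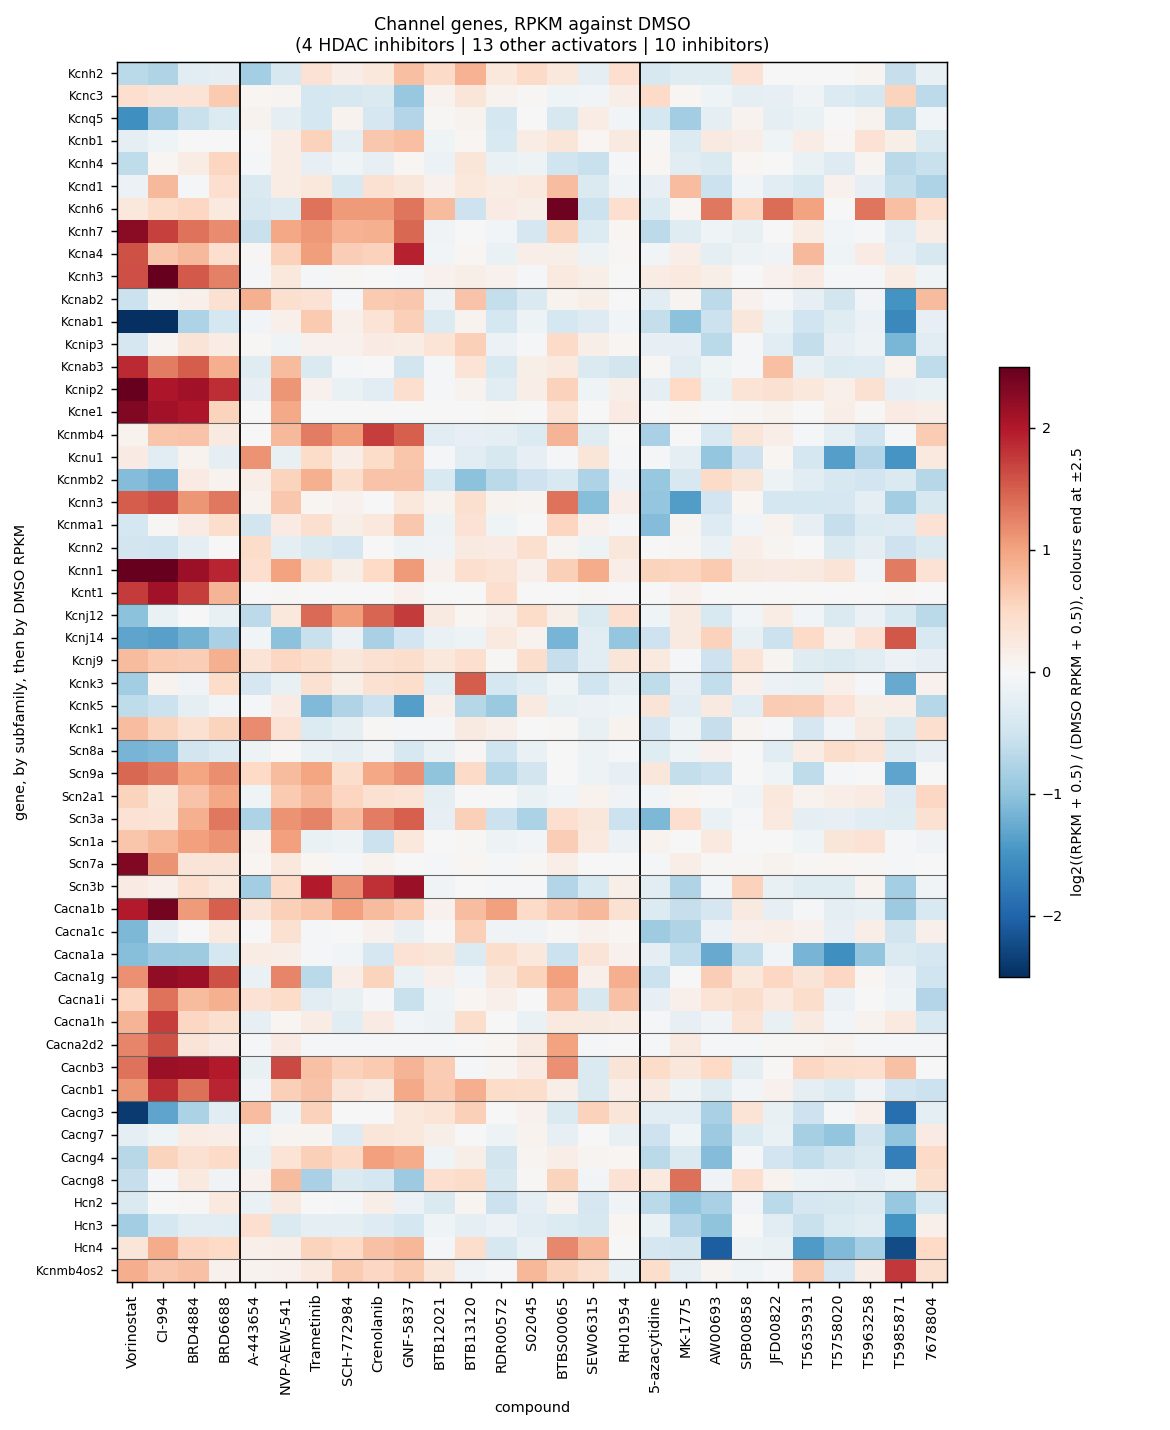
Change in level of 54 of the described channel genes (vertical, grouped by subfamily and ordered by DMSO RPKM within it) with the 27 compounds (horizontal, HDAC inhibitors, other activators and inhibitors from left to right), as the log2 ratio of RPKM + 0.5 to that of DMSO, red for higher and blue for lower, with colours ending at 2.5 on either side. Red fills much of the first 4 columns, as for Cacnb1 and Cacnb3, while Hcn4 is dark blue with T5985871 and AW00693, and Scn3b is dark red with Trametinib, Crenolanib and GNF-5837.

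Per HDAC inhibitor, Vorinostat had 16 channel genes higher and 10 lower, against 16.5% and 19.7% of all genes tested. CI-994 had 17 higher and 5 lower, against 17.4% and 21.9%. BRD4884 had 14 higher and 1 lower against 10.5% and 4.61%, and BRD6688 had 11 higher and 0 lower against 8.73% and 6.89%. These folds rest on merged values and give no error, and no count of such calls has a test. The higher calls include genes at or below 1 RPKM in DMSO, such as Kcnn1 at 0.22, which could not be called lower. Nothing is read from the excess of higher over lower calls.

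A test with the spread between libraries was available from exon-exon junction reads, summed over the introns of each gene in each library and scaled between libraries by the median of ratios. Of the 143 symbols 129 were in the splicing table and 52 had at least 10 junction reads per library on average, of which 51 are described genes. For the 4 HDAC inhibitors together against DMSO, 28 of these 52 rose and 7 fell in limma at an adjusted p below 0.05, over the 11223 genes tested. Among all genes tested, 40.6% rose and 36.4% fell. Among genes with a DMSO mean of at least 10 reads, 22 of 46 channel genes rose and 7 fell, against 37.4% and 38.5% of such genes. The other 6 channel genes tested reached the minimum only through libraries with compounds, so they had to differ and nothing is read from their calls. The median log2 change was 0.41 over the 46 channel genes and -0.01 over all genes with that DMSO mean. All 8 HDAC inhibitor libraries lay above all 3 DMSO libraries in 25 of the 52 channel genes and below them in 4, against 27.2% and 24.0% of all genes. The 25 include the 6 genes that had to differ, so nothing is read from this count. The squared difference between the 2 Vorinostat libraries was 15.8 times its expectation from sampling noise, in the median over genes. For other replicate pairs it was 4.52 to 6.49 times. Over all fits that left out 1 library the counts were 26 to 32 rising and 6 to 9 falling.

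Of 6 genes of the calcium channel pore 4 rose and 0 fell, as did both beta subunit genes tested, where 37.4% of all genes with a DMSO mean of at least 10 reads rose. Cacna1b had 1800, 1703 and 1677 scaled junction reads in the DMSO libraries, and the HDAC inhibitor libraries ran from 3551 through a median of 5042 to 8311, with no overlap. Its log2 change was 1.60 ± 0.063 (SE), with an adjusted p of 1.33e-10 in limma. RPKM went from 8.3 in DMSO to 34.2 with Vorinostat, 45.7 with CI-994, 17.98 with BRD4884 and 24.3 with BRD6688. CI-994 libraries were the highest for this gene and BRD4884 and BRD6688 libraries the lowest of the 8.

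Cacnb3, a beta subunit that carries alpha1 subunits to the membrane, had 559, 558 and 518 reads in DMSO, against 1774 to 2706 with the HDAC inhibitors around a median of 1987. The log2 change was 1.94 ± 0.063 with an adjusted p of 2.79e-11 in limma. The related Cacnb1 had 421 to 470 reads in DMSO and 1119 to 2264 with the HDAC inhibitors, with a median of 1759. It rose by 1.89 ± 0.094 on the log2 scale, and for neither gene did the groups overlap. The T-type channel gene Cacna1g had 300 to 349 reads in DMSO and 1016 to 2523 with the HDAC inhibitors, and the CI-994 libraries were highest at 2523 and 2321. Its log2 change was 2.16 ± 0.092 with an adjusted p of 2.40e-10 in limma. The other T-type genes Cacna1h and Cacna1i also rose, by 2.48 ± 0.24 and 1.44 ± 0.14. Cacna1c (Cav1.2) did not pass the test, at a log2 change of -0.09 ± 0.066 and an adjusted p of 0.249 in limma, nor did Cacna1a, at 0.41 ± 0.20 and an adjusted p of 0.083.

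**Figure D2:**
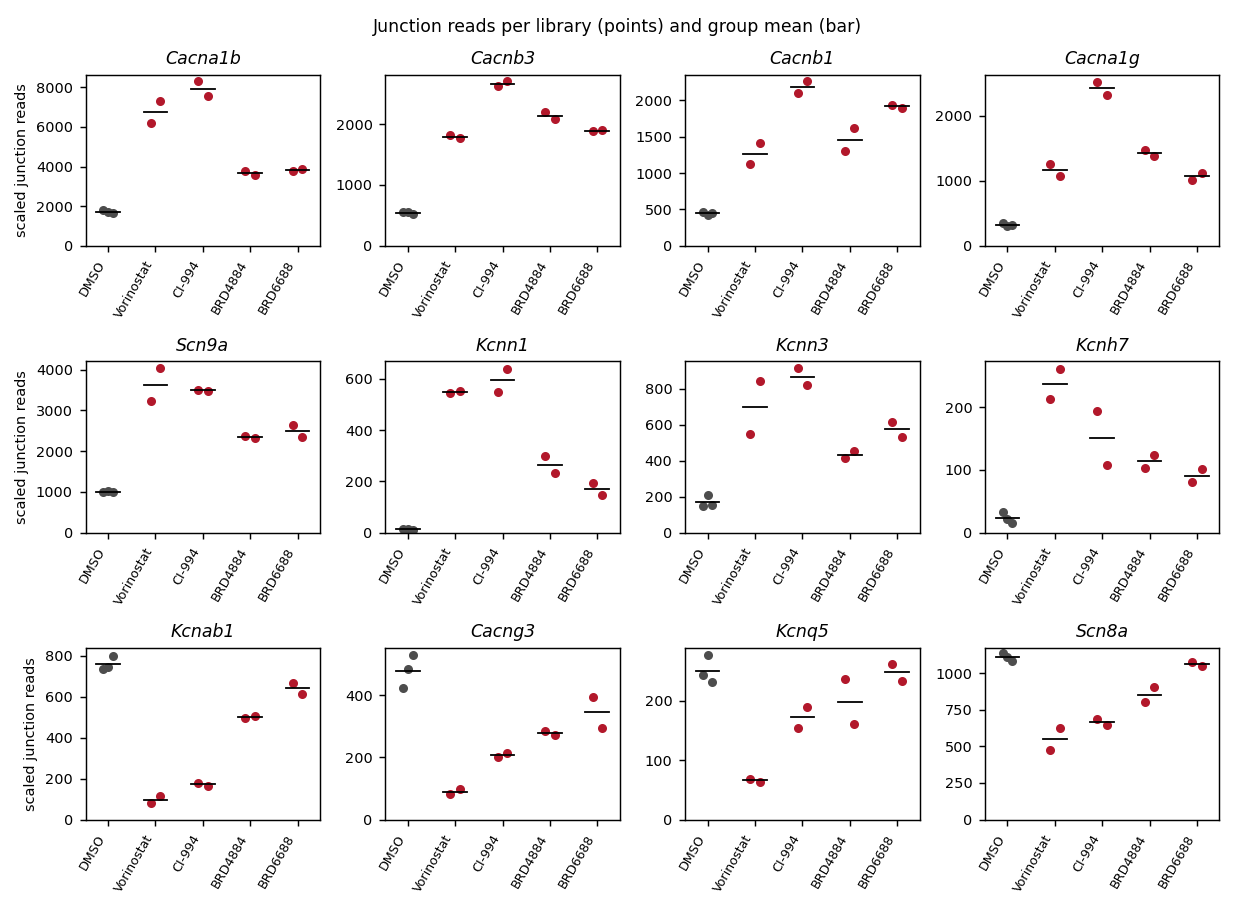
Scaled junction reads per library (vertical, linear from 0) for 12 channel genes in DMSO (grey points, 3 libraries) and with the 4 HDAC inhibitors (red points, 2 libraries each), where bars are group means. In the upper 8 panels every red point lies above the grey points, as for Cacna1b with 3551 to 8311 reads against at most 1800, and for Kcnab1 all red points lie below them.

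Of the 5 sodium channel alpha genes with a DMSO mean of at least 10 reads, 4 rose and 1 fell, against 37.4% and 38.5% of all such genes. Scn9a (Nav1.7) had 991, 1027 and 1001 reads in DMSO and 2313 to 4051 with the HDAC inhibitors around a median of 2927. The groups did not overlap, and the log2 change was 1.54 ± 0.074 with an adjusted p of 6.72e-10 in limma. Smaller rises were measured for Scn3a (0.90 ± 0.098) and Scn2a1 (0.97 ± 0.098), and Scn1a rose by 2.19 ± 0.16. Scn3b, a beta subunit gene, rose by 0.55 ± 0.081. Scn8a fell, from 1139, 1115 and 1082 reads in DMSO to between 479 and 1080, with a median of 746. Its log2 change was -0.55 ± 0.082 with an adjusted p of 3.60e-05 in limma, and the 2 BRD6688 libraries, at 1080 and 1050, lay close to the DMSO values while the Vorinostat and CI-994 libraries were at 688 or below. Its RPKM was 16.6 in DMSO, 7.18 with Vorinostat and 13.03 with BRD6688.

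Some genes were near zero in DMSO and entered the junction test only through libraries with compounds, so their values are given as a description, with no test. Scn7a, an atypical sodium channel alpha gene, had 2 reads over the 3 DMSO libraries and 896 over the 8 HDAC inhibitor libraries. The ratio of scaled reads was 195, with a 95% interval of 53.8 to 1613 that covers counting error only. Vorinostat libraries held most of its reads, at 296 and 382 scaled reads against 20.5 to 140 in the other 6. Kcnt1, a sodium-activated potassium channel gene, had 1 read in DMSO against 522, a ratio of 227 (40.6 to 8993). Cacna2d2, an alpha2delta subunit gene, had 2 against 435, a ratio of 94.7 (26.1 to 784). Kcnh3 had 9 against 1082, a ratio of 52.3 (27.5 to 115). Kcnip2, which binds Kv4 channels, had 7.31, 4.56 and 2.73 scaled reads in DMSO and 38.7 to 142 with the HDAC inhibitors, with a median of 62.0, a ratio of 14.2 (8.99 to 23.7). Scn7a, Kcnt1, Cacna2d2 and Kcnh3 remained low per length, with at most 2.53 RPKM with any HDAC inhibitor.

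Of 9 Kv alpha genes with a DMSO mean of at least 10 reads 2 rose and 3 fell. Of 7 such genes with symbols beginning Kcnm, Kcnn, Kcnt or Kcnu, 2 rose and 1 fell. Both stand against the same 37.4% and 38.5% of all genes. Kcnn1, which encodes the small-conductance calcium-activated channel SK1, had 13.9, 15.2 and 9.6 reads in DMSO and 147 to 637 with the HDAC inhibitors, with a median of 422. The log2 change was 4.72 ± 0.19, with an adjusted p of 1.88e-10 in limma, and its RPKM rose from 0.22 to between 2.21 with BRD6688 and 6.25 with CI-994. Its relative Kcnn3 rose by 1.89 ± 0.15, whereas Kcnn2 did not pass the test at -0.20 ± 0.13 (adjusted p = 0.192 in limma). Kcnh7, an ERG family gene, rose by 2.59 ± 0.27 from 33.2, 22 and 15 reads to between 80.3 and 261.

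The largest fall was that of Kcnab1, which encodes a Kv beta subunit. The DMSO libraries held 735, 743 and 799 reads. Vorinostat libraries held 79.1 and 114, CI-994 libraries 179 and 165, BRD4884 libraries 496 and 503, and BRD6688 libraries 666 and 614. No HDAC inhibitor library reached the DMSO range, and the Vorinostat and CI-994 libraries lay below those of the other pair of compounds. The log2 change of the 4 together was -1.496 ± 0.10 with an adjusted p of 1.86e-08 in limma, and RPKM was 13.9 in DMSO, 1.43 with Vorinostat and 10.1 with BRD6688. Cacng3 followed the same order of compounds, with 423 to 529 reads in DMSO, 82.0 and 97.0 with Vorinostat and 396 and 295 with BRD6688, and its log2 change was -1.22 ± 0.11. Kcnq5, an M-type channel gene, fell by 0.71 on the log2 scale, although BRD6688 libraries at 262 and 234 reads overlapped the DMSO range of 232 to 278. Kcnh2 fell by 0.37 on the log2 scale, from 2204 to 2514 reads to between 1568 and 2101. Of the 35 genes called, 24 that rose and 5 that fell had an RPKM change of the same sign with all 4 compounds.

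BRD4884 and BRD6688 were applied at the same concentration, 10 µM, and are the only pair compared directly, in this 1 comparison. In limma 1 channel gene was higher and 2 were lower with BRD4884, against 14.6% and 11.1% of all genes tested. Cacna1g was higher with BRD4884, at 1472 and 1387 reads against 1016 and 1124, a log2 difference of 0.42 (95% interval 0.13 to 0.71) with an adjusted p of 0.039. Cacnb1 was lower, at 1300 and 1617 reads against 1939 and 1900, by -0.40 (-0.70 to -0.11), with an adjusted p of 0.048. The libraries of the compounds did not overlap for either gene. None of these calls remained when any 1 library of either compound was left out, which leaves 1 library in that group. The other 49 channel genes did not pass the test, which does not show that the compounds act alike on them.

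For a compound with 1 library, the same fit assumes that the library varies like the replicated groups. More channel genes rose than fell with 10 of the 13 activators other than HDAC inhibitors. This count includes channel genes that reached the minimum only through libraries with compounds. Among genes with a DMSO mean of at least 10 reads, A-443654 went from 6 and 5 to 5 and 5. It then no longer had more rising genes. GNF-5837, a TRK inhibitor at 500 nM, had 23 channel genes higher and 4 lower in limma, against 20% and 21.5% of all genes. Trametinib, a MEK inhibitor at 1 µM, had 19 higher and 1 lower against 10.4% and 10.7%, and Crenolanib, a PDGFR inhibitor at 2 µM, 16 and 1 against 13.6% and 14.7%. SCH-772984, an ERK inhibitor at 2 µM, had 6 higher and 0 lower against 3.37% and 4.54%, with 15 at an unadjusted p below 0.05 in either direction. The doses differ, so the compounds are set side by side and not compared.

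Scn3b, which encodes the sodium channel beta3 subunit, was the channel gene with the highest RPKM ratio with each of these 4 compounds. Its RPKM was 14.7 in DMSO, 59.0 with Trametinib, 33.2 with SCH-772984, 53.5 with Crenolanib and 67.4 with GNF-5837. In junction reads, 479, 472 and 501 in DMSO stood against 2291, 1137, 1980 and 2745. The log2 changes were 2.24, 1.23, 2.03 and 2.504, each ± 0.14 (SE), with adjusted p of 2.14e-07, 0.000131, 4.47e-07 and 4.00e-08 in limma. No other compound raised its RPKM 2-fold. The HDAC inhibitors left it between 16.1 and 19.9 RPKM.

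Other channel genes were higher with the same compounds. Scn3a (Nav1.3) had 444 to 483 reads in DMSO and 1306, 761, 1316 and 1661 with Trametinib, SCH-772984, Crenolanib and GNF-5837, and its log2 changes ran from 0.70 to 1.83 with adjusted p of at most 0.023 in limma. Kcnmb4, a beta subunit of the BK channel, had 5.4 RPKM in DMSO and 13.8, 11.7, 19.1 and 16.1 RPKM with the 4 compounds in that order. In junction reads it passed the test with 3 of them, and with SCH-772984 it was at 0.73 ± 0.36 (adjusted p = 0.255 in limma). Kcnj12, an inward rectifier gene, was at 1.68 RPKM in DMSO and at 5.3, 4.0, 5.47 and 6.8 RPKM. It had too few junction reads for the test. Kcnk5, an acid-sensitive two-pore channel gene, was lower, at 0.65 RPKM with GNF-5837 and 0.9 with Trametinib against 2.5 in DMSO. In junction reads it fell with GNF-5837 by 1.505 on the log2 scale (adjusted p = 0.00196 in limma), and with Trametinib it was at -0.88 ± 0.31 (adjusted p = 0.063).

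More channel genes fell than rose with 7 of the 10 inhibitors of microexon splicing, and as many fell as rose with the other 3. These counts include channel genes that reached the minimum only through libraries with compounds. T5985871, at 6.7 µM, had 3 channel genes higher and 25 lower in limma, against 26.2% and 24.2% of all genes. AW00693, at 5 µM, had 3 higher and 18 lower against 15.5% and 14.5%, and T5635931 and T5758020, both at 6.7 µM, had 2 and 10 and 1 and 9, against 10.7% and 9.93% and 9% and 10.4%. 5-azacytidine, a DNA methyltransferase inhibitor, had 3 higher and 10 lower against 1.87% and 4.85%. Another inhibitor, SPB00858, had 0 channel genes called in either direction, with 5 at an unadjusted p below 0.05, against 0.00891% and 0.0713% of all genes. Among genes with a DMSO mean of at least 10 reads, MK-1775 went from 6 and 6 to 3 and 6, so it was no longer even. The shares of all such genes were 9.55% and 12.3%. T5985871 had 3 and 24 (25.6% and 25.4%) and 5-azacytidine 2 and 10 (1.59% and 4.99%).

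Hcn4, a slow pacemaker channel gene, fell with the first 4 of these. It had 346, 341 and 334 reads in DMSO, 59.3 with T5985871, 73.0 with AW00693, 123 with T5635931 and 157 with T5758020. These 4 libraries lay far below the narrow DMSO range. The log2 changes were -2.51, -2.21, -1.47 and -1.12, each ± 0.18, with adjusted p of 3.68e-07, 4.91e-06, 0.000181 and 0.00119 in limma. RPKM fell from 4.51 to 0.57, 0.7, 1.38 and 1.83. With the HDAC inhibitors Hcn4 rose instead, by 1.08 ± 0.10, from 334 to 346 reads to between 540 and 1134. Hcn3 fell with T5985871 and AW00693, by 1.53 and 1.09 on the log2 scale, and Hcn2 fell with both, by 0.67 and 0.61.

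**Figure D3:**
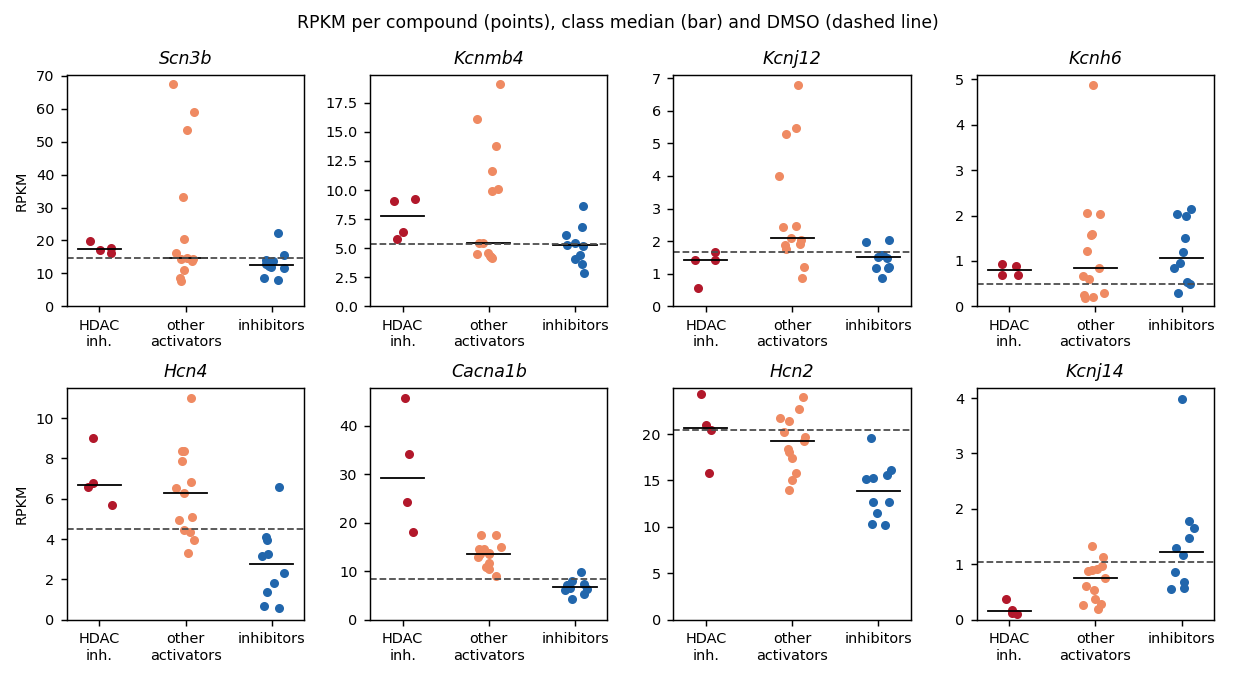
RPKM of 8 channel genes (vertical, linear from 0) with each compound as a point, by class: 4 HDAC inhibitors, 13 other activators and 10 inhibitors of microexon splicing, where bars are class medians and the dashed line is the DMSO value. Scn3b reached 33.2 to 67.4 RPKM with 4 of the other activators, and Hcn4 lay below its DMSO value of 4.51 with 9 of 10 inhibitors.

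Further genes were called with single compounds. The counts of channel genes rising and falling in limma were 15 and 3 with BTB13120 (16.5% and 15.9% of all genes), 20 and 2 with NVP-AEW-541 (17.2% and 11.4%) and 17 and 3 with BTBS00065 (15.8% and 11.3%). They were 6 and 6 with MK-1775 (11.7% each), 6 and 5 with A-443654 (6.39% and 6.91%) and 4 and 2 with BTB12021 (3.06% and 4.74%). With RDR00572 they were 2 and 1 (1.16% and 2.90%), with JFD00822 1 and 1 (1.84% and 0.588%), and with T5963258 1 and 2 (1.20% and 2.24%). These counts include channel genes that reached the minimum only through libraries with compounds. Among genes with a DMSO mean of at least 10 reads, 16 rose with NVP-AEW-541 (15.1% of all such genes). With BTBS00065 12 rose (14.5%), with BTB13120 14 (16.8%), with A-443654 5 (6.27%) and with MK-1775 3 (9.55%). The falling counts with these compounds, and both counts with the others named here, did not change.

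BTB13120 raised Kcnk3 (TASK1, a leak channel) from 116, 88.1 and 79.1 reads in DMSO to 430, a log2 change of 2.20 ± 0.41 with an adjusted p of 0.00222 in limma, and its RPKM from 11.3 to 33.2. T5758020 lowered Cacna1a (Cav2.1, the P/Q-type channel) from between 75.2 and 112 reads to 14.6, a log2 change of -2.56 ± 0.35 with an adjusted p of 0.00042, and its RPKM from 3.26 to 0.8. NVP-AEW-541, an IGF1R inhibitor, raised Cacnb3 from 518 to 559 reads to 1641, by 1.59 ± 0.11 with an adjusted p of 9.32e-07. MK-1775, a WEE1 inhibitor, raised Cacng8 by 2.04 ± 0.69 (adjusted p = 0.049) and lowered Kcnn3 by 1.29 (adjusted p = 0.0033). A-443654, an AKT inhibitor, raised Kcnk1, by 1.74 ± 0.51 (adjusted p = 0.041), and BTB12021 lowered Scn9a, by 1.05 (adjusted p = 0.000437).

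Kcnh6, an ERG family gene, was the only described gene called in 1 direction by RPKM with at least 5 of the 23 other compounds. It was higher with 8 of them, from 0.5 RPKM in DMSO to between 1.58 with Crenolanib and 4.87 with BTBS00065. Below 1 RPKM in DMSO, Kcnh6 could be called higher only, so its single direction was fixed by the rule. In junction reads the DMSO libraries spread from 18.6 through 31.1 to 46.4. With BTBS00065 the library had 168 reads, a log2 change of 2.47 ± 0.60 with an adjusted p of 0.0089 in limma, and GNF-5837 also passed at 1.74 ± 0.60 (adjusted p = 0.033). The RPKM calls with Trametinib, SCH-772984, Crenolanib, AW00693, JFD00822 and T5963258 did not pass the junction test, with log2 changes of 0.49 to 1.46. For RDR00572, the RPKM of Cacna1b was 17.4 against 8.3 in DMSO, whereas its junction reads gave a log2 change of -0.01 ± 0.11 (adjusted p = 0.986). With T5985871, Kcnj14 was at 3.99 RPKM against 1.04 in DMSO, and Kcnmb4os2, a transcript antisense to Kcnmb4, at 1.78 RPKM against 0.17, and neither could be tested in junction reads. The sources used here do not say whether the quantification used strand, so reads of Kcnmb4os2 and Kcnmb4 may not be told apart.

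The partner genes of these channels give a background for the changes. Of 35 genes that bind, traffic or scaffold channels, such as calmodulin, ankyrin and Fgf13 family genes, 34 were in the table and 20 exceeded 1 RPKM in DMSO. By the 2-fold rule 9 were higher and 2 lower with at least 1 HDAC inhibitor, against 24.1% and 26.5% of all genes tested, and 7 higher and 4 lower with at least 1 other compound, against 30.9% and 19.6%. Partner genes at or below 1 RPKM in DMSO could be called higher only.

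Levels were also compared between the compound classes, over compounds rather than libraries, a comparison added after the values were seen. Compounds that share a target are not independent units, so its p-values may be too small. Between 17 activators and 10 inhibitors, 13 of 56 channel genes had higher RPKM with activators and 2 with inhibitors in limma at an adjusted p below 0.05, against 6.71% and 9.34% of 16357 genes. Cacna1b ran from 8.92 to 45.7 RPKM with activators and from 4.17 to 9.81 with inhibitors, a log2 difference of 1.20 ± 0.20 with an adjusted p of 0.0011. In RPKM all 17 activators lay above the DMSO value of 8.3 and 9 of 10 inhibitors below it. In junction reads, A-443654 had 1439, below the DMSO libraries at 1677 to 1800, a log2 change of -0.26 ± 0.11 (adjusted p = 0.130 in limma). Hcn4 differed by 1.24 ± 0.24 (adjusted p = 0.00309), and Hcn2 by 0.47 ± 0.11 (adjusted p = 0.00595). For Hcn2 all 10 inhibitors lay below the DMSO value of 20.4 RPKM, as did 9 of the 13 other activators and 1 of the 4 HDAC inhibitors. Kcnn3, Kcnip3, Cacng7, Cacnb1, Cacng4, Kcnu1, Kcnj9, Cacna1a, Kcnh7 and Scn9a were also higher with activators, by 0.47 to 1.02. Kcnj9 and Kcnh7 exceeded 1 RPKM only with activators, and inhibitors had at most 0.58 and 0.62 RPKM. Both entered the 56 genes for that reason, so nothing is read from their difference. Genes that entered this way were not left out of the counts in this comparison. Kcnj14 and Kcnk5 were higher with inhibitors, by 0.76 and 0.52. Without the HDAC inhibitors 11 genes were higher with the 13 other activators and 0 with the inhibitors, against 6.27% and 7.17% of all genes, and 2 channel genes had an unadjusted p below 0.05 in the second direction.

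The splicing table held 1396 exon events of these genes, of which 274, in 32 genes, were measured in DMSO. Inclusion is given as PSI, the percent of transcripts that include an exon. Of these, 239 were at 95 PSI or more, 6 at 5 PSI or less, and 29 in 16 genes lay between. An exon was called changed where mean PSI differed from DMSO by at least 10 with a posterior probability above 0.95 from the reads, which cover counting error only. Over the 27 compounds 112 pairs of exon and compound were increased and 88 decreased of 6464, or 1.73% and 1.36%, against 0.635% and 1.01% of the pairs of all genes. The calls fell on 49 exons of 20 genes. With limma, which also takes up the spread between libraries, 6 pairs were increased and 5 decreased of 6369, or 0.0942% and 0.0785%, against 0.0580% and 0.146% of the pairs of all genes, with 77 channel gene pairs at an unadjusted p below 0.05 and a change of at least 10 PSI. Without DMSO replicate A the posterior rule gave 171 increased pairs in place of 112.

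**Figure D4:**
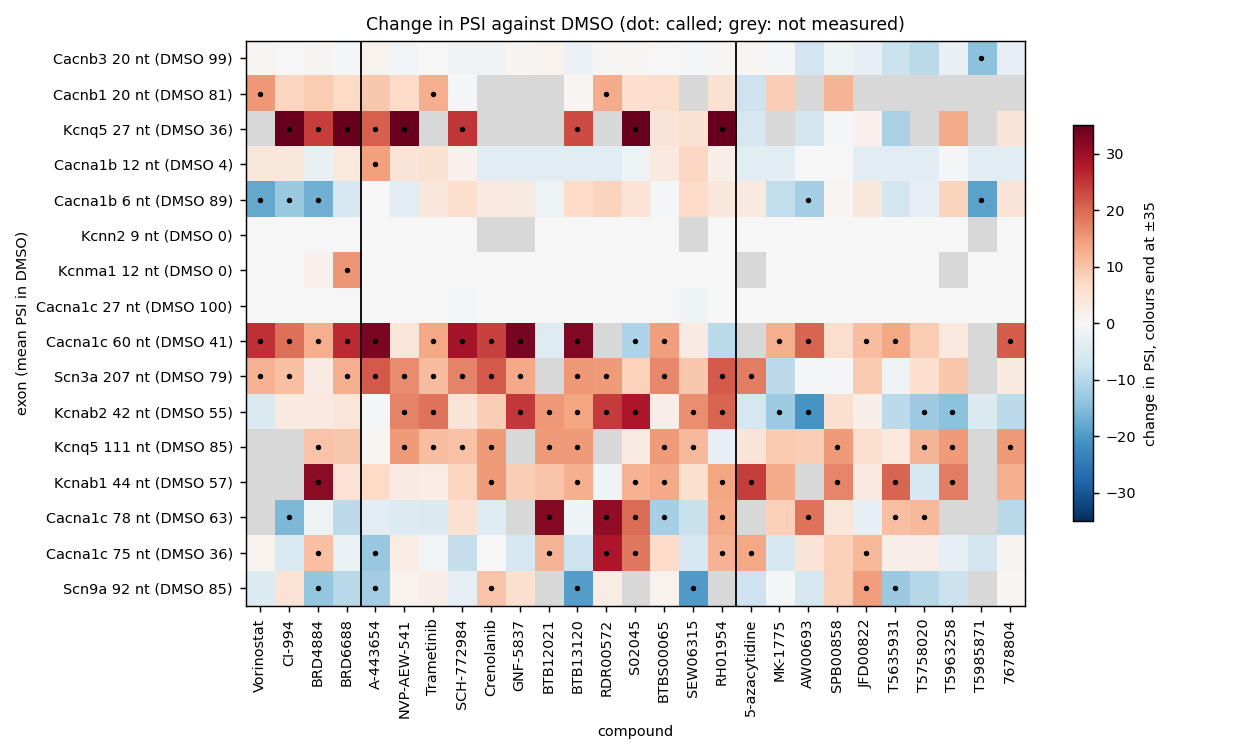
Change in PSI against DMSO for 16 channel gene exons (vertical, with the mean DMSO PSI) with 27 compounds (horizontal, HDAC inhibitors, other activators and inhibitors separated by lines), red for more and blue for less inclusion, colours ending at 35 PSI, dots for called changes and grey for not measured. The 27-nt exon of Kcnq5 was called increased with 9 compounds, and the 42-nt exon of Kcnab2 was red with most activators and blue with most inhibitors.

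Of the 8 microexons, the 27-nt exon of Kcnq5 varied most. It was at 42.8 and 28.2 PSI in DMSO A and B, and was not measured in DMSO C. With the HDAC inhibitors it was measured in 3 libraries, at 59.8 PSI with BRD4884, 79.6 with BRD6688 and 93.5 with CI-994, and with 8 other activators it ran from 40.1 to 79.9 PSI. The 7 inhibitors measured had 24.3 to 48.4 PSI and overlapped the DMSO libraries, and 9 compounds, all activators, were called increased. None of the 9 passed limma, with adjusted p of 0.975 to 1. A longer exon of Kcnq5, of 111 nt, was called increased with 13 compounds of both classes, and 0 of these passed limma. Its DMSO libraries spread from 78.1 and 80 to 97.3 PSI.

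The 20-nt exon of Cacnb3 was at 98.7, 97.7 and 100 PSI in DMSO and fell to 84.5 PSI with T5985871, the only call (adjusted p = 0.0186 in limma). No call of the other microexons below passed limma. The 6-nt exon of Cacna1b was at 89.6, 92.8 and 85.8 PSI in DMSO and was called decreased with 5 compounds. With T5985871 it was at 70.7 PSI and with AW00693 at 77.5. Vorinostat libraries had 71.7 and 71.4 PSI, CI-994 libraries 74.4 and 78.6, and BRD4884 libraries 80.8 and 64.2, all below the DMSO libraries. A 12-nt exon of the same gene was at 0, 11.8 and 0 PSI in DMSO and was increased only with A-443654, to 18.2 PSI. The 12-nt exon of Kcnma1, the BK channel gene, was at 0 PSI in the 3 DMSO libraries and at 11.5 and 19.2 PSI with BRD6688. The 20-nt exon of Cacnb1, at 89.97 and 71.3 PSI in DMSO A and B, was called increased with 3 compounds, and its calls turned from 3 more increased to 1 more decreased without DMSO replicate B. The 9-nt exon of Kcnn2 was at 0 PSI in every library measured, and the 27-nt exon of Cacna1c at 98.3 PSI or more.

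The 42-nt exon of Kcnab2, within the most abundant channel gene, differed between the classes. It was at 52.0, 53.4 and 59.9 PSI in DMSO, from 234 to 478 reads per library. HDAC inhibitor libraries, from 46.3 to 61.7 PSI, overlapped DMSO and none was called. The 13 other activators ran from 54.3 with A-443654 through a median of 71.5 to 83.5 PSI with S02045, and 9 were called increased. The 10 inhibitors ran from 34.6 with AW00693 through a median of 46.0 to 60.7 PSI with SPB00858, and 4 were called decreased. In limma 3 of the 9 increases passed, with GNF-5837, RDR00572 and S02045, and 0 of the 4 decreases, with adjusted p of 0.077 to 0.41. Between 17 activators and 10 inhibitors the log2 odds of inclusion differed by 1.18 ± 0.23, with an adjusted p of 0.00413 in limma over compounds, and 15 activators lay above and 8 inhibitors below the DMSO mean. Without the HDAC inhibitors the difference was 1.38 ± 0.22 (adjusted p = 0.00191).

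**Figure D5:**
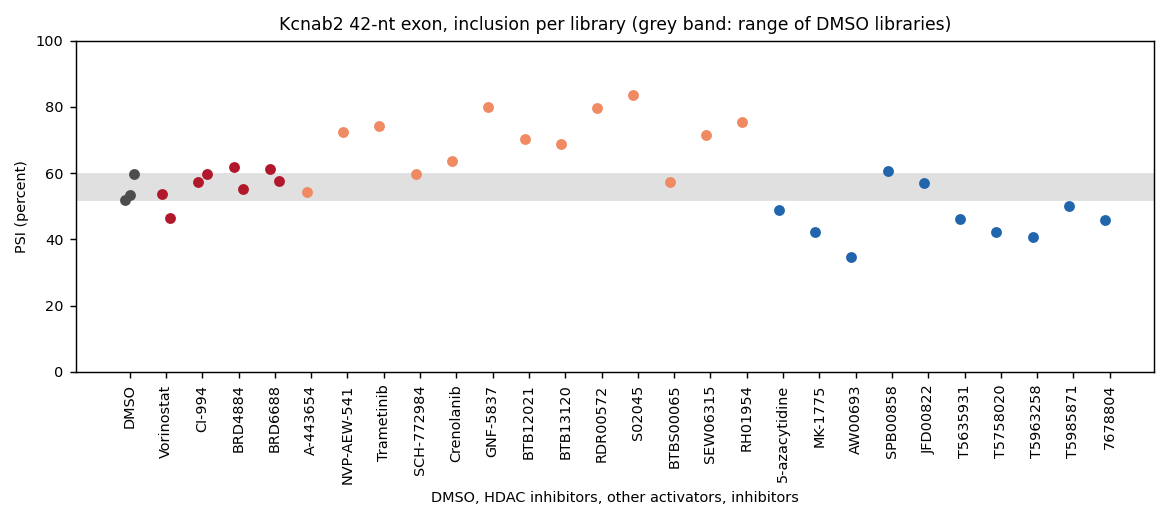
Inclusion of the 42-nt exon of Kcnab2 in PSI (vertical, 0 to 100) in each of 34 libraries, grouped by condition (horizontal), with grey for DMSO, dark red for HDAC inhibitors, orange for other activators, blue for inhibitors, and a grey band for the range of the 3 DMSO libraries, 52.0 to 59.9 PSI. Most orange points lie above the band and 8 of 10 blue points lie below it.

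In the same comparison 2 of 217 channel gene exons were more included with activators and 0 with inhibitors, against 1.82% and 0.141% of all exons, with 13 and 0 at an unadjusted p below 0.05. The second was the 20-nt exon of Cacnb3, printed above, with a difference of 1.15 ± 0.23 in log2 odds (adjusted p = 0.00596). Its inclusion changed on average by -0.01 PSI with activators and -4.84 PSI with inhibitors. The classes rest on microexon inclusion, so a microexon is not independent of how the compounds were classed. With the HDAC inhibitors left out, both exons again passed, out of 214 channel gene exons, against 0.961% and 0.0780% of all exons.

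Longer exons of sodium and calcium channel genes were also called with many compounds. A 207-nt exon of Scn3a was at 84.6, 74.1 and 77.1 PSI in DMSO and was increased with 14 compounds, of which 13 were activators, reaching 100 PSI with A-443654, RH01954 and Crenolanib. In limma 2 of the 14 passed, A-443654 (adjusted p = 0.029) and RH01954 (adjusted p = 0.049). A 44-nt exon of Kcnab1, at 58.3, 53.4 and 58.7 PSI in DMSO, was increased with 10 compounds and decreased with 0, from both classes. In Scn9a, a 92-nt exon at 86.2, 85.2 and 84.9 PSI in DMSO was decreased with 5 compounds and increased with 2, of which 1 increase, with JFD00822, passed limma (adjusted p = 0.00139). No call of the Kcnab1 exon, or of the 3 Cacna1c exons called below with 16, 7 and 7 increases, passed limma. In Cacna1c a 78-nt exon was increased with 7 compounds and decreased with 2, and a 75-nt exon was increased with 7 and decreased with 1. RDR00572 gave 94.3 PSI for the first, against 56.3 to 73.8 in DMSO, and 64.4 PSI for the second, against 31.5 to 41.4.

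Cacna1c is known to carry pairs of alternative exons of equal length. A 60-nt exon was called increased with 16 compounds and decreased with 1, but its DMSO libraries A and B were at 52.7 and 29.4 PSI. The highest library was GNF-5837 at 74.4 PSI and the lowest after DMSO B was S02045 at 30.3. A second 60-nt exon, chosen after its values were seen, lies 149 bases away. The pair is shown because both are measured as alternatives in these libraries, with the differing bases in capitals; 35 of 60 bases were identical (58.3%).
Cacna1c 60 nt, chr6:118674346-118674405, minus strand: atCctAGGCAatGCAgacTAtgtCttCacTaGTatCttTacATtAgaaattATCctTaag
Cacna1c second 60 nt, chr6:118674555-118674614, minus strand: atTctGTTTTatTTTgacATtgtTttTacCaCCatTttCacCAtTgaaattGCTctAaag

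In the 26 libraries where both could be measured, the PSI values of the 2 exons summed to between 80.6 and 142, with a median of 114. The first ran from 29.4 to 74.4 PSI and the second from 40.2 to 74.7 PSI over the libraries. The sums exceeded 100 in 21 of these libraries. The second exon was called increased with RDR00572 and decreased with 3 compounds, CI-994 and Crenolanib among them.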

How the data were processed

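PolyA+ RNA-seq of 34 N2A libraries was analysed. The authors deposited RPKM values made with Salmon on GENCODE vM21 transcripts and summed to genes, with libraries of a condition merged, so RPKM has no error here. The paper and the submitters' notes give different Salmon versions (0.10.2 in the notes). The authors deposited percent spliced in (PSI) values made with vast-tools on mm9, beside text fields that give the reads supporting each PSI. The deposited fold changes, p-values and FDR of the authors' edgeR exact test and their own splicing calls were not used. No value column lacked a sample (0 columns).

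Junction reads were read from the text fields of intron events, summed per gene, and scaled by the median of ratios. limma 3.58.1 (R 4.3.3) with trend was fitted to log2 of reads plus 0.5 for 11223 genes with a mean of at least 10 reads, with 1 mean per condition in all 34 libraries (6 residual degrees of freedom) and Benjamini-Hochberg adjustment over all genes. Library totals were 17702718 to 40613524 junction reads. Exon changes used 2000 draws of a beta distribution of the reads, at least 2 passing DMSO libraries, and coverage scores SOK, OK and LOW. Class comparisons used limma on log2(RPKM + 0.5) or log2((PSI + 2.5)/(102.5 - PSI)), with compounds as units. Compounds that share a target, such as the 4 HDAC inhibitors, are not independent units, so these p-values may be too small. Depth of the RPKM values is unknown, and intervals cover counting error only. Scripts were tested on simulated data.

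Genes were named as the 10 highest in DMSO, up to 8 rising and 8 falling with the HDAC inhibitors, the highest and lowest called with each other compound, and those called in 1 direction with 5 or more others. Exons were named as all those of at most 27 nt measured and the 8 longer ones called most often. Other genes and the second Cacna1c 60-nt exon were chosen after their values were seen. Some items that these rules select are not reported here. Members, lists and rules were chosen with earlier results of these data known. Alternatives were the pseudocount, minimum, scaling, coverage scores, test, and leaving out each replicate.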

Additional observations from a re-analysis of the deposited data

Results flagged for a closer look

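Between BRD4884 and BRD6688 at the same concentration, Cacna1g differed by 0.42 and Cacnb1 by -0.40 on the log2 scale in junction reads (limma, BRD4884 minus BRD6688). Between activators and inhibitors of microexon splicing, the 42-nt exon of Kcnab2 differed by 1.18 and the 20-nt exon of Cacnb3 by 1.15 in log2 odds of inclusion (limma over compounds). The comparison of the classes was added after the values were seen. No explanation was tested for any of them.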

How the results depend on the processing

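The RPKM calls depended on the limits. Of the 105 pairs higher and 46 lower, a minimum of 5 RPKM left 53 and 17, a pseudocount of 1 left 26 lower, and centring on the median of genes above 5 RPKM left 27 lower. The junction test of the HDAC inhibitors together (28 and 7) gave 48 rising with a minimum of 1 read, where more genes are tested, and 26 to 32 rising and 6 to 9 falling when 1 library was left out. Summed over the compounds, 277 rising and 139 falling calls became 249 to 323 and 109 to 175. These sums include channel genes that reached the minimum only through compounds. The 13 changes that the naming rule selected for the HDAC inhibitors kept their direction and their side of the threshold under 195 alternative values. They include Scn7a, Kcnt1, Kcnh3, Cacna2d2 and Kcnip2, which reached the minimum only through compounds and had to differ. Nothing is read from the stability of those genes. The other HDAC inhibitor changes in the text were not run one by one. Of 135 alternative values of 27 named RPKM ratios, 34 lost the 2-fold call.

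BRD4884 against BRD6688 (1 higher and 2 lower) gave 3 and 1 when scaled to total junction reads and 6 higher with a minimum of 1 read. Leaving out 1 library gave 0 to 3 and 0 to 8, with 8 lower without either Vorinostat library and 0 in both directions without any library of BRD4884 or BRD6688. The replicate letters are not stated to pair samples, and correlations of same-letter deviations lay between -0.10 and 0.04. With DMSO and HDAC inhibitor libraries only, the replicate block gave 32 rising and 7 falling genes, against 31 and 8 with no block, and 3 higher and 2 lower for BRD4884, against 3 and 5 with no block.

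Exon calls (112 increased and 88 decreased) fell to 52 and 35 with a change of at least 15 PSI and to 6 and 5 with limma on log odds. Leaving out 1 replicate gave 104 to 171 increased, the highest without DMSO replicate A, and 87 to 108 decreased. The 20-nt exon of Cacnb1 went from 3 more increased than decreased calls to -1 without DMSO replicate B, and of 208 alternative counts for 16 named exons 26 moved by over 1.5 times. The cause was not tested. Between the classes, the 2 genes higher with inhibitors became 0 without the HDAC inhibitors.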

Other observations

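For Cacna1a with the HDAC inhibitors, the quantities went in opposite directions. RPKM was 3.26 in DMSO and 1.29 to 2.28 with the 4 compounds, below DMSO with each. Scaled junction reads were 81.7, 75.2 and 112 in DMSO and 70.3 to 200 with the HDAC inhibitors, a log2 change of 0.41 ± 0.20 (adjusted p = 0.083 in limma). The reason was not tested.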
